A study of Mus musculus with 2 samples.

Results

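Fatty acid synthesis, elongation and desaturation were followed through 10 genes in newborn mouse liver: Acly, Me1, Acaca, Acacb, Fasn, Elovl6, Scd1, Elovl5, Fads1 and Fads2. They were chosen by name from the 43346 Ensembl genes of the tables, not by their values, and all 10 had a row in the gene and transcript tables of both livers. The livers came from 2 pups of 1 pregnancy, B6NCrl mice at postnatal day 0, with no treatment named in the labels, and each library was made from 1 liver. The labels name 1 group only, so levels are described within this tissue and the littermates are set side by side. Values are given in TPM, reads per length of the gene scaled to a fixed total, which allows levels of different genes to be ranked. A gene was taken as detected when neither liver gave it less than 1 TPM, and errors are the SD over the 2 livers.

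Fatty acids are built in the cytosol from acetyl-CoA that ATP-citrate lyase splits from citrate. Acetyl-CoA carboxylase makes malonyl-CoA, fatty acid synthase joins it into palmitate with NADPH, and elongases and desaturases shape the chain. A separate route takes the essential dietary fatty acids and desaturates and elongates them into arachidonic acid and docosahexaenoic acid. In adult liver the first route is induced by insulin and carbohydrate through SREBP-1c and ChREBP and falls in fasting.

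The polyunsaturated route was high and the synthesis route low. Fads2, Elovl5 and Fads1 stood at 73 to 229 TPM in the 2 livers, against 0.9 to 26.2 TPM for the other 7 genes, so the ranges did not overlap. These 3 genes held 89.7% of the TPM of all 10 members in pup 1 and 90.8% in pup 2. The 5 enzymes that make and shape saturated and monounsaturated chains (Fasn, Acaca, Acacb, Elovl6 and Scd1) held 2.54% and 2.58%. In expected counts, which weight genes by length, the same shares were 79.1% and 81.3% for the 3 genes and 7.74% and 7.15% for the 5. The grouping by route was made with the levels known and carries no test. The median of the 10 members was 5.56 ± 0.813 TPM (SD, n = 2), and that of all 12332 genes detected in both livers 9.46 ± 0.311 TPM. Detection was reached by 9 of the 10, all except Acacb, which the authors' posterior mean TPM put above the threshold in both livers (1.23 and 1.07 TPM).

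**Figure D1:**
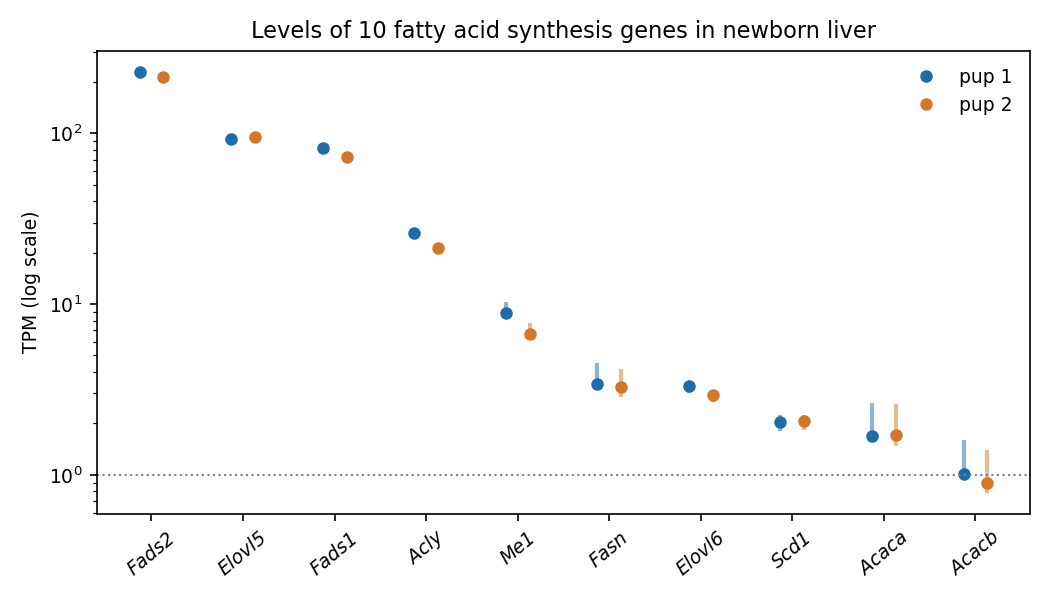
TPM (log axis) of the 10 genes in each liver, ordered by mean, with the authors' credible interval as a bar and a dotted line at 1 TPM. Fads2, Elovl5 and Fads1 lie between 73 and 229 TPM, and Acacb lies at the 1 TPM line.

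Several sequences help to read the values. In Acly the transcripts divide by 1 short exon inside the coding sequence, chr11:100503160-100503189 on the minus strand, 30 bases long and thus a whole number of codons. The lines give the mRNA 5′ to 3′ across that place from GENCODE M21 transcripts, with the exon in capitals.
Acly-203: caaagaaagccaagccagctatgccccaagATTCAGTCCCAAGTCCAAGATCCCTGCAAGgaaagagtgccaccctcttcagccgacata
Acly-201: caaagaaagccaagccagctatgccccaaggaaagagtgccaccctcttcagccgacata

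In Acacb the largest deposited share of TPM in each liver went to a noncoding transcript, Acacb-204, rather than to the full-length coding Acacb-202. Acacb-204 opens with an exon of 308 bases at chr5:114199779-114200086 (plus strand), which lies inside an intron of Acacb-202 (chr5:114198341-114200239). Both transcripts then continue into the same exon, chr5:114200240-114200390. The lines show the junction, with the part that differs in capitals.
Acacb-202: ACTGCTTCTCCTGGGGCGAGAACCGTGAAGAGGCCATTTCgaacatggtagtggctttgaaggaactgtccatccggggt
Acacb-204: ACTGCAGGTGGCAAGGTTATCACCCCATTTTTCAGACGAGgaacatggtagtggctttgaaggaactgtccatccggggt

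Promoters are shown for 1 gene of each route, the low Fasn and the high Elovl5. RefSeq (GRCm38.p6) gave promoter sequence for 8 of the 10 members, with 9 start sites; Scd1 and Fads1 had no entry. The 250 bases before each start were searched on both strands for CACGTG (the palindromic E-box bound by ChREBP, USF and SREBP-1 proteins), CCAAT (bound by NF-Y), GGGCGG (bound by Sp1) and TCACNCCAC (a core of the sterol response element). Capitals mark matches, and bases that GENCODE places in an exon were left out of the printed lines. In Fasn, CCAAT and its reverse complement overlap in 1 of the matches.
Fasn promoter, chr11:120824548-120824797 (minus strand): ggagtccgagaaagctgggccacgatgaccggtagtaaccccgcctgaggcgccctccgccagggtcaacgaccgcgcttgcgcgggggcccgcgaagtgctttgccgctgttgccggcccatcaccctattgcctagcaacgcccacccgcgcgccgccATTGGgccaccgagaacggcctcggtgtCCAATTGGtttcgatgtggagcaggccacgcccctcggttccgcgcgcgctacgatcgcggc
Elovl5 promoter, chr9:77917115-77917363 (plus strand): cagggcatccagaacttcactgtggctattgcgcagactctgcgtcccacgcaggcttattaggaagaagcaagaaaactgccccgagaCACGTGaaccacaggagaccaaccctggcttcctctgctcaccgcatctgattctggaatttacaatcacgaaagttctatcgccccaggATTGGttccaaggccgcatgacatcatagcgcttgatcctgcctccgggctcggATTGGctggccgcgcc

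CCAAT was present in 4 of the 9 member windows (Acacb, Elovl5, Fasn and 1 start of Me1), against 33.8% of all 32851 windows in the table. GGGCGG was present in 3 (Acly, Fads2 and the other start of Me1), against 32.7%. CACGTG was found in 1, that of Elovl5, against 6.02%, and TCACNCCAC in 0, against 1.05%. These matches describe letters in a window, and the levels above were not compared with them.

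Carbon and reducing power for synthesis come from Acly and Me1. Acly (ENSMUSG00000020917.13, chromosome 11, 100476353 to 100528000, minus strand), which makes cytosolic acetyl-CoA, had 26.2 TPM in the first pup and 21.3 TPM in the second, a mean of 23.7 ± 3.49 TPM (SD, n = 2). This rested on 3850 and 3187 expected counts, and 71.9% of detected genes lay below it. The citrate carrier Slc25a1, which exports the substrate of Acly from mitochondria, was at 67.7 TPM in each liver. In TPM Acly was below it by 1.52 ± 0.21 on the log2 scale (SD, n = 2). In expected counts Acly was at 0.973 times Slc25a1, which had 3582 and 3618 counts, so Acly was the higher in pup 1 and the lower in pup 2. The acetate-activating enzyme Acss2, the alternative cytosolic source of acetyl-CoA, stood at 6.57 and 7.13 TPM, 3.45 times below Acly.

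Me1 (ENSMUSG00000032418.11, chromosome 9, 86581371 to 86695953, minus strand), the cytosolic malic enzyme that yields NADPH, was at 8.88 and 6.7 TPM. It was the lowest of the cytosolic NADPH sources compared here. Its log2 ratio was -1.38 ± 0.18 to G6pdx of the pentose phosphate pathway and -3.77 ± 0.27 to isocitrate dehydrogenase Idh1 (105 ± 1.08 TPM). The mitochondrial malic enzyme Me2 stood at 15 ± 0.933 TPM, and Me3 at 0.3 TPM in both livers, from 12 and 17.45 counts. Each of these ratios had the same sign in both livers and lay more than 3 SD from 0, the rule used for all pairs.

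The core of synthesis stood low in TPM. Fasn (ENSMUSG00000025153.8, chromosome 11, 120805846 to 120824547, minus strand), the enzyme that assembles palmitate, reached 3.39 and 3.27 TPM in pups 1 and 2, from 1114 and 898 counts over a long gene. Acaca (ENSMUSG00000020532.14, chromosome 11, 84129672 to 84401651, plus strand), the cytosolic acetyl-CoA carboxylase, was at 1.69 and 1.71 TPM from 445 and 380 counts, with credible intervals of 1.64 to 2.65 and 1.48 to 2.59 TPM. Fasn exceeded Acaca by 0.97 ± 0.049 on the log2 scale (SD, n = 2) and was 7.09 times below Acly.

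Acacb (ENSMUSG00000042010.12, chromosome 5, 114146535 to 114250761, plus strand) encodes the carboxylase at the mitochondrial surface, whose malonyl-CoA inhibits the carnitine palmitoyltransferase Cpt1a. It was the lowest member, at 1.01 and 0.9 TPM from 253 and 206 counts. Cpt1a stood at 122 ± 0.82 TPM, 127 times the level of Acacb. Mlycd, the decarboxylase that removes malonyl-CoA, was at 32.5 and 38.7 TPM, 37.2 times Acacb. Both TPM ratios were larger than the spread between the livers. In expected counts the gaps were smaller, with Acacb at 0.0125 times Cpt1a and 0.0888 times Mlycd. By the deposited shares, coding transcripts held 20.4% of Acacb TPM in pup 1 and 41.6% in pup 2. The gene level is thus not that of the carboxylase mRNA alone.

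Elovl6 and Scd1 turn palmitate into stearate and oleate. Elovl6 (ENSMUSG00000041220.6, chromosome 3, 129532355 to 129638495, plus strand), the elongase of saturated chains, was at 3.31 and 2.95 TPM from 690 and 618 counts. Scd1 (ENSMUSG00000037071.2, chromosome 19, 44394455 to 44407879, minus strand), the desaturase that makes oleate and is abundant in lipogenic adult liver, was at 2.04 and 2.06 TPM from 344.64 and 350 counts. Scd1 was below its paralog Scd2, a form known from brain and from early development, at 5.48 and 5.14 TPM: the log2 ratio was -1.37 ± 0.075. Of the other genes of this chromosome 19 cluster, Scd3 had 0 and 2.07 counts and Scd4 2 and 1.01. Scd genes are similar copies; the authors' posterior SD of the Scd1 count was 1.44 counts in pup 1.

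In the polyunsaturated route Fads2 led the 10 members. Fads2 (ENSMUSG00000024665.7, chromosome 19, 10062765 to 10101746, minus strand), the first and rate-limiting desaturase, reached 229 and 214 TPM in pups 1 and 2, from 11466 and 10814 counts. Fads1 (ENSMUSG00000010663.4, chromosome 19, 10182888 to 10196877, plus strand), the later desaturase, was at 81.8 and 73 TPM from 9767 and 8771 counts. Their neighbour Fads3 (chromosome 19, 10041569 to 10060110) was at 1.27 and 1.49 TPM, far below both. The log2 ratio of Fads2 to Fads1 was 1.52 ± 0.05 in TPM but 0.27 in expected counts. The Fads2 model in the deposited tables was 1508 bases long, and the same transcript has 3150 bases in GENCODE M21. The size of the lead of Fads2 over Fads1 therefore depends on the length by which its reads were divided. In expected counts Fads2 was still the higher of the 2 in both livers.

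Elovl5 (ENSMUSG00000032349.9, chromosome 9, 77917364 to 77984519, plus strand), the elongase that acts between the desaturases, was at 92.7 and 95.6 TPM from 7857 and 8319 counts. It was 30.1 times Elovl6. Elovl2, which lengthens the chain further on the way to docosahexaenoic acid, was higher still at 283 and 271 TPM, 2.94 times Elovl5. The 4 genes of the polyunsaturated route thus all stood at 73 TPM or more. Elovl3, an elongase of saturated and monounsaturated chains, had 12 and 11 counts, while Elovl1, of very long saturated chains, stood at 43.8 ± 2.18 TPM.

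Ordered by mean TPM, the members ran Fads2, Elovl5, Fads1, Acly, Me1, Fasn, Elovl6, Scd1, Acaca, Acacb. All 9 steps ran the same way in TPM in both livers. Of these, 7 exceeded the spread. Elovl5 over Fads1 (0.29 ± 0.15 on the log2 scale) and Fasn over Elovl6 (0.09 ± 0.081) did not. Scd1 over Acaca, at 0.27 in each liver, passed the rule although the authors' credible intervals of these genes overlapped. By posterior mean TPM, Acaca was above Scd1 in pup 1 (2.12 and 2.02 TPM) and below it in pup 2 (2.02 and 2.04 TPM). In expected counts, Fads1 stood above Elovl5, Fasn above Me1 and Acaca above Scd1 in both livers. Of the 20 pairs of related genes 19 exceeded the spread. The exception was Srebf1 over Mlxipl, the genes of SREBP-1 and ChREBP, at 0.72 in pup 1 and 1.19 in pup 2. With 2 livers an exact sign permutation cannot go below a p of 0.5, so none is given.

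Elongation cycle partners, electron donors and supply genes were mostly well above the synthesis genes, while the other elongases and desaturases were mixed. Across 8 lists of the wider pathway, 58 of 65 genes were detected. Of the partners that complete each elongation cycle all 6 were detected, from Tecr, the final reductase, at 203 ± 8 TPM and the dehydratase gene Hacd3 at 89.6 ± 6.17 TPM to its relatives Hacd2 at 23 ± 0.806 and Hacd4 at 4.6 ± 0.0424 TPM. The electron donors of the desaturases were led by Cyb5a, cytochrome b5, at 1584 ± 54.7 TPM, with its reductase Cyb5r3 at 73.5 ± 3.2 TPM and the outer mitochondrial form Cyb5b at 19 ± 2.55 TPM. The list of citrate, acetyl-CoA and NADPH supply had a median of 40.8 ± 4.17 TPM with 12 of 13 detected, led by the mitochondrial pyruvate carrier genes Mpc1 (1242 ± 23.8 TPM) and Mpc2 (798 ± 40.7 TPM). Other desaturases ranged from Degs1, of ceramide synthesis, at 84.1 ± 0.544 TPM down to Scd3. Elovl1, which lengthens very long saturated chains, stood at 43.8 ± 2.18 TPM and Elovl4 at 3 and 5 counts.

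Most regulators were detected. All 12 genes of transcription control were detected, with 25.3 ± 1.33 TPM as their median and, at the top, the fasting receptor gene Ppara at 153 ± 11.1 TPM and Insig2, which retains SREBP in the endoplasmic reticulum, at 38.8 ± 3.51 TPM. The lowest were Usf2 at 12 ± 0.389 TPM and Mlxipl at 11.5 ± 0.318 TPM. Srebf1 was at 18.6 and 26.7 TPM. Of 13 genes that act on the enzymes 12 were detected, with the AMPK subunit genes Prkab1 at 47.4 ± 0.544 and Prkag1 at 38.3 ± 3.17 TPM at the top. At the bottom were Hlcs, which attaches biotin to carboxylases, at 1.49 ± 0.24 TPM and the catalytic AMPK subunit gene Prkaa2 at 0.925 ± 0.00707 TPM.

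Related lipid pathways had higher medians than the members. The 16 beta-oxidation genes had a median of 220 ± 2.32 TPM and ran from Acads at 79.2 ± 3.82 to Acaa2 at 914 ± 46.7 TPM, with Etfb second at 651 ± 7.33 and Cpt2 at 86.1 ± 1.15 TPM. By mean TPM the lowest of them stood above 8 of the 10 members, all but Fads2 and Elovl5, though Acads and Fads1 (77.4 ± 6.24 TPM) lay within their spread. The 20 cholesterol synthesis genes had a median of 25.7 ± 1.68 TPM, from Mvd at 4.66 ± 0.502 and Mvk at 8.61 ± 0.587 to Hmgcs1 at 79.3 ± 9.38 and Sc5d at 129 ± 1.15 TPM. The 13 genes of triglyceride synthesis had a median of 22.2 ± 0.573 TPM, led by Dgat2 at 206 ± 16.2 and Agpat2 at 191 ± 2.79 TPM, with Lpin3 at 0.935 ± 0.191 TPM and Mogat1 at 0 and 3 counts.

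**Figure D2:**
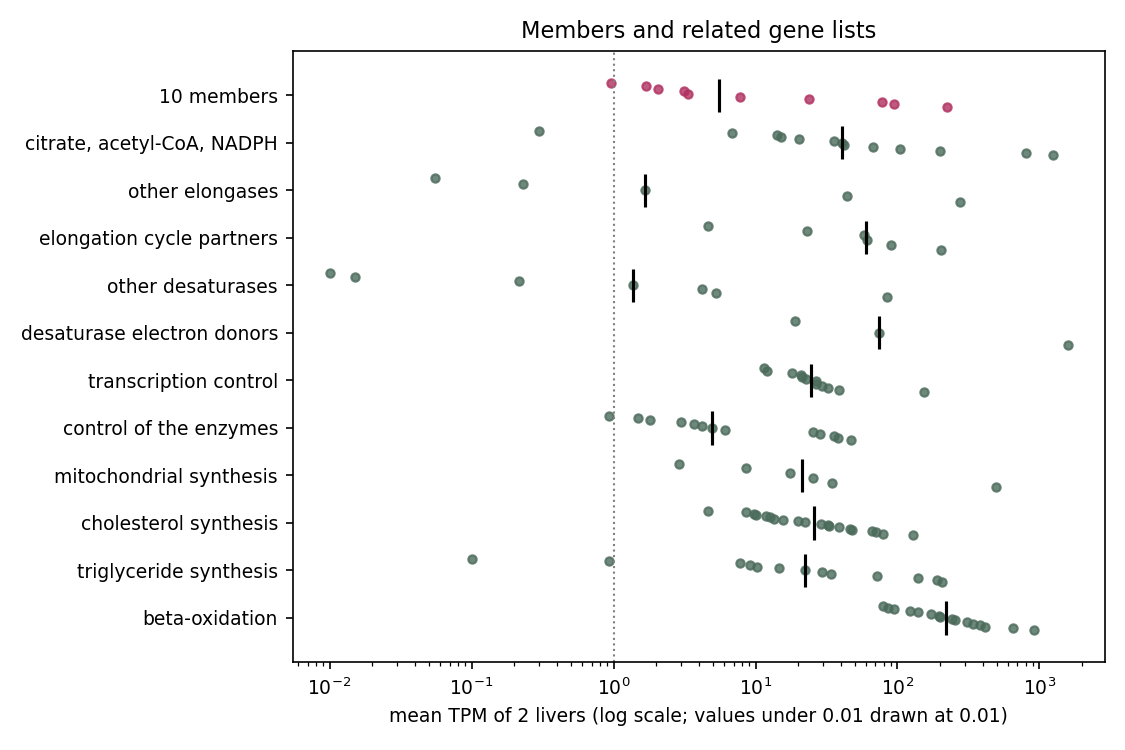
Mean TPM over the 2 livers (log axis) of each gene, by list, with the list median as a black bar and a dotted line at 1 TPM. The 10 members run from 0.955 to 222 TPM, and the beta-oxidation genes all lie at 79.2 TPM or above.

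Markers of the tissue were as labelled, and most of those of fat were below detection. All 10 hepatocyte markers were detected, from Hnf4a at 23 ± 1.63 to Apoa1 at 23975 ± 145 TPM, and together held 4.78% of TPM in pup 1 and 4.69% in pup 2. The 8 erythroid markers held 9.39% and 9.76%, from Gata1 at 36.2 ± 2.28 to the globin gene Hba-a2 at 58141 ± 805 TPM, so the libraries hold RNA of blood-forming cells beside hepatocytes. Fat tissue is the other main site of fatty acid synthesis. Of 10 adipocyte markers 3 were detected: Fabp4, the lipid droplet gene Cidec (5.18 and 7.09 TPM, intervals apart) and the lipase gene Lipe (4.66 and 4.29 TPM). Cidec and Lipe stood above Fasn, Elovl6, Scd1 and Acaca. Cidea was at 0.24 and 1.21 TPM, higher in pup 2 with intervals apart. Leptin (Lep), adipsin (Cfd) and Ucp1 had 0 counts in both livers, and Adipoq had 1 count in pup 1 and 0 in pup 2. Plin1, which coats lipid droplets, had 0 and 1. The list's summed level was 109 and 99.3 TPM, most of it Fabp4 (92.8 ± 8.78 TPM), which endothelial cells and macrophages also make. Macrophage markers ran from Adgre1 (13.5 ± 0.488 TPM) to Lyz2 (500 ± 11.4 TPM), endothelial markers from Cdh5 (6.99 ± 0.0636 TPM) to Egfl7 (45.3 ± 2.1 TPM), mesenchymal markers from Pdgfrb (2.4 ± 0.559 TPM) to Dcn (127 ± 2.66 TPM), and bile duct markers from Cftr (7 and 10 counts) to Krt19 (5.87 ± 1.42 TPM). In whole tissue, fewer cells of a type and less RNA per cell cannot be told apart.

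Between the littermates no member was called 1.5-fold apart, and few of all genes were. Ratios were taken of pup 2 to pup 1 after log2(TPM + 1), which understates differences of low genes, and 9 members had the mean TPM of 1 or more that the comparison asked for. At 1.5-fold or more with credible intervals that did not overlap, 0 of 9 were called, against 1.47% of 12711 genes (0.999% higher in pup 2 and 0.472% lower). At 2-fold it was again 0 of 9, against 0.629%, and with counts at 1.5-fold 0 of 9, against 1.81%. Each pup has 1 library, so this compares 2 animals and has no replicate check. At any size with intervals apart, 4 of 9 differed, against 20.1%: all 4 were lower in pup 2 (Me1, Acly, Fads1 and Fads2), against 13.8% of all genes, and 0 were higher, against 6.27%. The median of the 9 was -0.09, beside -0.05 over all genes. Across genes the ratio had an SD of 0.36 at levels of 1 to 10 TPM, which Me1 (-0.36) equalled, and of 0.28 at 10 to 100 TPM, where Acly was at -0.29. It was 0.19 at 100 to 1000 TPM, where Fads2 was at -0.09.

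Me1 differed most, at 0.755 times the pup 1 TPM in pup 2. In counts scaled by TMM its ratio was 0.796, with an exact 95% counting interval of 0.724 to 0.876. Acly was at 0.812 times in TPM and 0.861 in counts (0.821 to 0.902). Fads1 was at 0.892 times in TPM and 0.934 in counts (0.907 to 0.961). Fads2 was at 0.937 times in TPM, while its count interval, 0.955 to 1.01, included 1.

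For Fasn the unit mattered. Its TPM was 0.965 times in pup 2, but its count ratio was 0.838 (0.767 to 0.916). The length the tables gave Fasn, an average over its transcripts, was 9326 bases in pup 1 and 7764 in pup 2. Acaca moved the same way, at 1.01 times in TPM and 0.888 in counts (0.772 to 1.02), with lengths of 7479 and 6292 bases. Elovl5 was at 1.03 times in TPM and 1.1 in counts (1.07 to 1.14), but lower in pup 2 when scaled to the ERCC spike-ins (-0.14 on the log2 scale), a scaling that shifted all genes by -0.25. Scd1 (1.05, 0.906 to 1.23), Elovl6 (0.931, 0.834 to 1.04) and Acacb (0.847, 0.701 to 1.02) had count intervals that included 1. In all, counting intervals excluded 1 below it for 4 of 9 members, against 18% of genes, and above it for 1, against 20.7%.

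**Figure D3:**
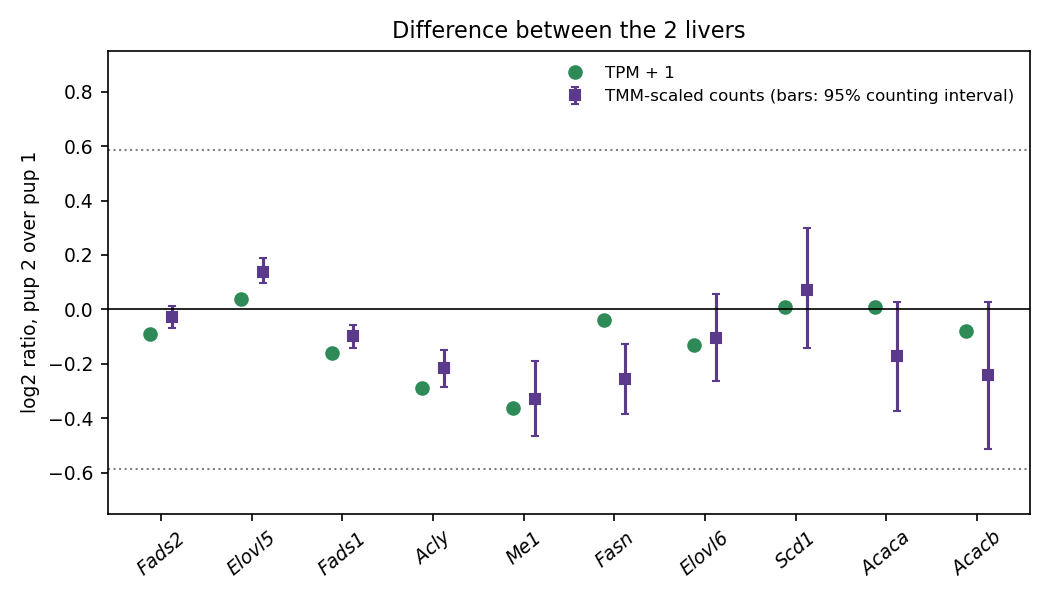
Log2 ratio of pup 2 over pup 1 for each member, as TPM + 1 (circles) and as TMM-scaled counts with 95% counting intervals (squares); dotted lines mark 1.5-fold. All values lie within the dotted lines, and the squares of Fasn, Acaca and Acacb lie below their circles.

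Other markers moved between these livers. All 10 skeletal muscle markers were higher in pup 2, with a summed level of 55.2 TPM in pup 1 and 828 TPM in pup 2, from Ttn (0.28 and 3.98 TPM) to Acta1 (16.3 and 310 TPM). Of 8 pancreas markers 7 were higher, with sums of 2.49 and 106 TPM, led by Ctrb1 at 0.11 and 33.6 TPM, and Pnlip had 0 counts in both. Of 10 hepatocyte markers 4 were higher and 6 lower in pup 2 with intervals apart. Only Tat among them passed 1.5-fold, lower at 94.4 and 56.4 TPM. Of 7 mesenchymal markers 6 were lower in pup 2. Only Des, also a muscle gene, passed 1.5-fold there, higher at 3.51 and 12.3 TPM. Their part in the differences of the members was not tested. The members kept the same order by TPM in both livers, but an order does not measure their differences between livers. Outside the members, 2 of the 11 triglyceride synthesis genes compared were past 1.5-fold, both lower in pup 2. They were the phosphatidate phosphatase Lpin1 (12 and 3.57 TPM) and the acyltransferase Gpat3 (18.6 and 10.6 TPM). No other gene of the pathway lists passed, beside 1.47% of 12711 genes.

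Transcripts divided the members into simple and mixed genes. Scd1, Elovl6, Fads1 and Fads2 had 1 transcript each in the annotation. Of the 6 with several, Me1 had a leading transcript with at least 90% of its TPM, Me1-201 at 99.4% ± 0.841 (SD, n = 2). The authors' posterior mean shares put Me1-201 at 88.8% and 89.4%, below that threshold. Over the 5 of these with a mean TPM of 1 or more that is 1 of 5, beside 27.8% of 8822 genes of several transcripts. Elovl5-201, the full-length coding form, held 86% and 88.2% of Elovl5, and the shorter Elovl5-202 (638 bases) 13.9% and 10.9% from 248 and 200.8 counts.

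Acly was carried by 3 coding transcripts. Acly-207 held 44.7% in pup 1 and 41.4% in pup 2, Acly-203 32.5% and 31.7%, and Acly-201 20.9% and 26.3%. Acly-203 is the one with the 30-base exon printed above. Among the 3, the form with the exon made up 33.1% and 31.9%, from 1310 and 1044 counts against 2530 and 2140 without it. The inclusion of the exon was thus alike to within 2 points in the 2 livers.

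The lowest genes had the least certain transcripts. Acacb-204 held 79.6% of Acacb in pup 1 and 58.4% in pup 2, and full-length Acacb-202 20.4% and 28.8%. By posterior mean shares Acacb-204 held 61.7% and 46.1%, and Acacb-202 10.1% and 21.7%. Acacb-205, a coding transcript of 676 bases, held 0% and 12.8%, the latter from 2.37 counts. Of the 6680 bases of Acacb-204, 6372 (95.4%) also lie in Acacb-202, so the split rests on reads over 308 and 2416 bases of their own. Acacb-201, the other long coding form, was given 0 counts in both livers. Fasn-201, the coding form, held 97% and 78.8% of Fasn, and the retained-intron Fasn-203 0% and 21.1%. That 21.1% came from 21.61 of 898 counts, since Fasn-203 is 971 bases long and Fasn-201 9587. Acaca-201 held 76.9% and 68%, and the 431-base Acaca-206 13.6% and 28.1% from 2.72 and 5.73 counts.

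A share of 10 points or more changed between the livers in Acaca, Acacb and Fasn. Of the 5 members of several transcripts and a mean TPM of 1 or more this is 2 (Acacb lies below that mean), beside 28.8% of such genes. With posterior mean shares 2 members were past 10 points, Acacb and Fasn, and Acaca did not (Acaca-201 at 58.2% and 53.9%). In counts rather than TPM, the leading transcript held 99.8% and 97.6% of Fasn and 93% and 98% of Acaca. Coding transcripts made up 20.4% and 41.6% of Acacb, and at least 78.8% of every other member in either liver.

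**Figure D4:**
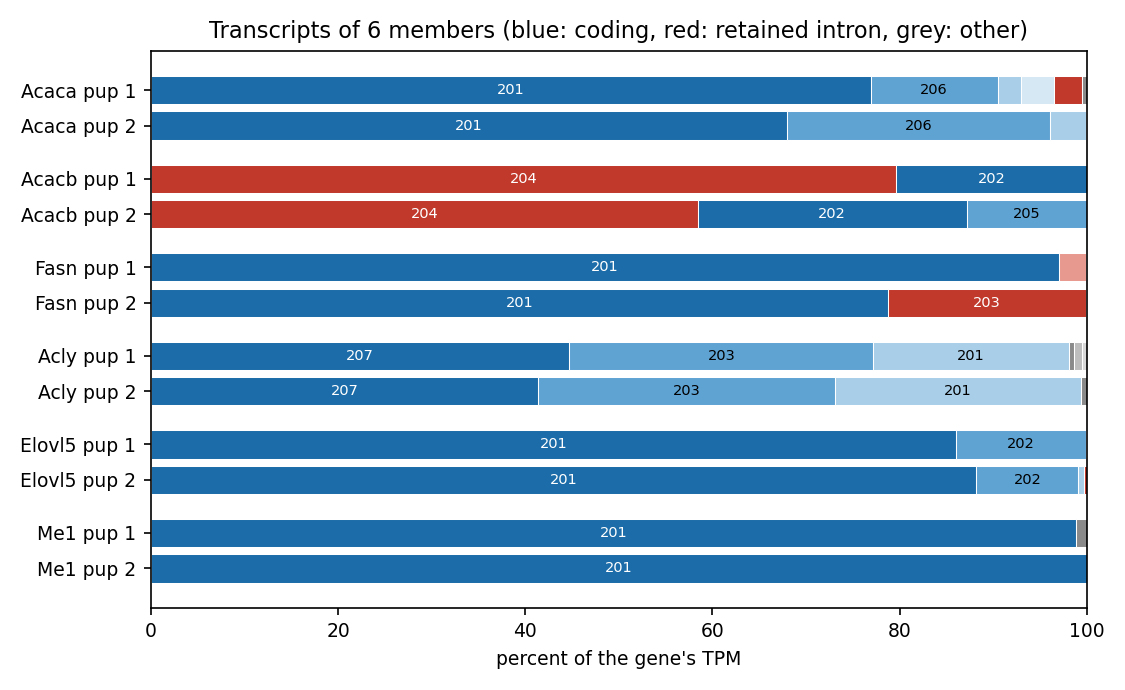
Percent of each gene's TPM held by its transcripts in each liver, for the 6 members with several; labels give the transcript number where it holds 10% or more. Acacb is led by the noncoding Acacb-204 (79.6% and 58.4%), and Acly by 3 coding transcripts.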

How the data were processed

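The authors deposited expected counts, which are model estimates of the reads of each gene and transcript. TPM was deposited by the authors as reads per effective length (length less 99 bases) scaled to a fixed total. FPKM was deposited by the authors and used only as an alternative. The percent of a gene's TPM held by each transcript, and credible bounds of TPM, were also deposited. The bounds belong to a posterior mean estimate, so TPM can lie near or outside them, and their level is not given. Per the submitters' notes, reads were placed on mm10 with GENCODE M4. Neither the aligner nor the counter is given in the sources used here. Per the labels' protocols, total RNA-seq used 10 ng of RNA longer than 200 nt, and a SMARTer Ultra Low RNA kit manual is linked. A library made with such a kit does not mark strand, and reads of overlapping antisense genes then cannot be told apart. Totals were 42124582 (pup 1) and 41443673 (pup 2) expected counts, and the limit set by a count of 0 (3 counts) was 0.0712 and 0.0724 CPM. Counting intervals cover counting error only.

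Symbols, transcript types and coordinates came from GENCODE M21 on GRCm38, the assembly mm10 names, by Ensembl identifier; all 194 listed symbols matched. Of 36 member transcripts 30 had the same length in both releases. With 1 group no contrast could be tested. A ratio exceeded the spread when both livers had the same sign and its mean was over 3 SD from 0. Count ratios used rounded counts, TMM factors from edgeR 4.0.16 (R 4.3.3) and exact conditional binomial intervals (scipy 1.17.1); size factors from DESeq2 1.42.0 were an alternative. Genes were counted by log2 count ratio after 1 CPM was added, while count ratios printed with intervals had nothing added. The rule for comparing livers was run on simulated counts with planted changes. These had counting error only and fixed gene lengths, so variation between animals and shifts in transcript shares were not covered. Named were all members and, of each pathway list, the 2 highest and 2 lowest genes, all genes of a pair and genes 1.5-fold apart. Of marker lists, the highest, the lowest and markers at 0 counts were named. Outside this rule Fads3, Cidec, Lipe, Cidea, Adipoq, Plin1, Tat and Des were also named. No genes of like pattern were sought, since 2 libraries give none. Genes and lists were chosen with earlier results of these data known.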

Additional observations from a re-analysis of the deposited data

How the results depend on the processing

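Results for the 10 members were recomputed with other settings. The small ratios of Acaca, Scd1 and Elovl5 changed sign under some scalings (Acaca 0.01 to -0.16 with TMM, Scd1 0.01 to -0.18 and Elovl5 0.04 to -0.14 with ERCC). Elovl5 is the member whose TMM counting interval lay above 1, so its direction depends on the scaling. Leaving globin and mitochondrial genes out of the TPM total moved the member median to 6.89 TPM, and single livers gave 4.99 and 6.14 TPM. With a threshold of 5 TPM, 5 members were detected, and with posterior mean TPM, 10 counts or 0.5 TPM, 10 were. Requiring only that credible intervals did not overlap, 4 members differed between the livers in place of 0; with counting intervals of scaled counts, a rule chosen after seeing the data that changes unit, size and interval together, 5 did. The median log2 ratio was -0.10 with TMM-scaled counts, DESeq2 size factors or posterior mean TPM, -0.08 without globin and mitochondrial genes, and -0.37 with ERCC spike-in scaling, where all genes shifted by -0.25; relative to all genes it was -0.12 there and -0.10 with TMM. The spike-ins had 163 and 190 counts only. A leading transcript of at least 50% was found in 9 members, and of 90% by posterior mean shares in 4. Single livers gave 9 and 10 members detected, 5 and 6 with a leading transcript of 90%, and 58 wider genes each. Leaving out 1 pup leaves no comparison between livers. No paired analysis was possible because there is 1 group. Transcript shares of genes under 4 TPM rest on few reads.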

Other observations

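Mitochondria hold a separate, bacterial-type pathway of fatty acid synthesis, which makes the precursor of lipoic acid. All 6 of its genes measured here were detected, at a median of 21.3 ± 0.615 TPM (SD, n = 2). They ran from Oxsm, the condensing enzyme, at 2.89 ± 0.156 and Acsf3, which activates malonate, at 8.57 ± 0.658 TPM to Cbr4, a reductase subunit, at 34.4 ± 0.495 and Ndufab1, the acyl carrier protein that is also a subunit of respiratory complex I, at 492 ± 8.17 TPM. None of the 6 had credible intervals apart between the livers, beside 20.1% of 12711 genes, and 6 genes are too few to set apart from that share.

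A gap between TPM and count ratios, as seen for Fasn, was counted over all genes after 1 was added to TPM and to TMM-scaled CPM. On this scale Fasn was at -0.04 in TPM and -0.24 in counts. The added 1 weighs differently in the 2 units, so it also enters the gap. Of 12711 genes, 793 (6.24%) had log2 ratios between the livers that differed by over 0.2 between TPM and TMM-scaled counts. This was 6.84% of 8822 genes of several transcripts and 4.89% of 3889 genes of 1 transcript. For 47 genes both ratios were over 0.1 in size and of opposite sign. Srebf1 was at 0.50 in TPM and 0.26 in counts.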
